A study of Homo sapiens with 9 samples.

Results

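The genes described here are 44 interferon-stimulated and RNA-sensing genes, taken by symbol from the 32906 genes that every library lists, and all 44 were found. They were followed in Huh7 cells, an established human hepatocellular carcinoma line, 48 hours after transfection of Scramble (the control siRNA), Si-KDM4C#1 or Si-KDM4C#2. Both Si-KDM4C siRNAs target KDM4C, a demethylase of histone H3. Each of the 3 groups had 3 libraries (9 in all), made from total RNA, and the authors deposited 1 list of FPKM values (fragments per kilobase of exon, scaled to the depth of the library) for each. The cells of all groups were transfected, and libraries of untransfected cells were not analysed here, so a response that all transfected cells share cannot be told apart from none.

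Cells recognise foreign RNA with cytosolic helicases such as RIG-I and MDA5 and with endosomal Toll-like receptors, which signal through adaptors to the kinase TBK1 and the transcription factors IRF3 and IRF7. These factors switch on the genes of type I and type III interferons. Secreted interferons bind receptors that include IFNAR1, activate JAK kinases, and assemble a complex that includes STAT2 and IRF9 and binds the interferon-stimulated response element (ISRE) in front of a large set of antiviral genes. Double-stranded RNA, small interfering RNAs among them, can enter this pathway, and the comparison asks whether either siRNA raised these genes over the Scramble control.

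The libraries held between 14597502 and 18058555 fragments, recovered from the FPKM values and the exon lengths of GENCODE release 29. KDM4C measured 4.88, 4.63 and 4.57 FPKM in Scramble, 1.18, 1.10 and 1.13 FPKM under Si-KDM4C#1 and 0.256, 0.349 and 0.256 FPKM under Si-KDM4C#2, so the labels of the knockdown groups held in every library. All 11 listed hepatocyte markers of a list of 14, AFP and APOA1 among them, stayed under 1 FPKM in every library. The highest value was 0.248 FPKM. The hepatocyte identity of the line was therefore not visible in these markers. The keratins KRT8 and KRT18, the collagens COL1A1 and COL3A1 and LUM were expressed. The other 2 listed epithelial markers, KRT19 and CDH1, were under 1 FPKM in every library. So were COL1A2 and DCN, 2 of the 5 fibroblast markers. PTPRC, a defining leukocyte mRNA, was at most 0.00679 FPKM, and 6 of 7 listed leukocyte markers were under 1 FPKM in every library. The summed level of the 5 fibroblast markers ran from 47.4 to 51 FPKM in Scramble, from 55.8 to 58.7 FPKM under Si-KDM4C#1 and from 78.5 to 79.6 FPKM under Si-KDM4C#2, and that of the 4 listed epithelial markers from 330.0 to 353.2, from 289.7 to 308.9 and from 240.1 to 254.0 FPKM. The epithelial sum was nearly all KRT8 and KRT18, which moved in opposite directions under Si-KDM4C#1. KRT8 averaged 199.5, 138.4 and 147.2 FPKM in Scramble, Si-KDM4C#1 and Si-KDM4C#2, and KRT18 140.5, 162.4 and 98.8 FPKM. The rise of the fibroblast sum was mostly that of COL3A1, with means of 27.5, 38.5 and 55.5 FPKM in the same order. COL1A1 averaged 14.8, 15.4 and 17.5 FPKM, and LUM, lower under Si-KDM4C#1, 6.97, 3.58 and 6.15 FPKM. The shifts of the sums moved with the groups, and their part in the results on the members was not tested.

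Promoters of the most changed members with an entry, and of some widely studied ISRE genes, are shown to describe where the ISRE occurs. RefSeq promoters (250 bases before to 50 bases after the annotated start, GRCh38.p14) were matched for 36 of the 44 members. DHX58, IRF3, IRF7, USP18, IFIT2, OAS2, OASL and IFITM2 had no matched entry in the promoter set used here. A core of the ISRE, spelled GAAANNGAAA on one strand and TTTCNNTTTC on the other, occurred in 22 of the 36 (61.1%), against 1195 of 27305 genes with a promoter of this length (4.38%). The lines below give the 160 bases before the start, 5′ to 3′ on the strand of the gene, with matches to the ISRE core in capitals. IFIT3, IFI44 and IFI6 had the largest log2(FPKM + 1) changes among members with an entry, and IFIT1, ISG15 and OAS1 are widely studied ISRE genes.
IFIT3, chr10:89327837-89327996, plus strand: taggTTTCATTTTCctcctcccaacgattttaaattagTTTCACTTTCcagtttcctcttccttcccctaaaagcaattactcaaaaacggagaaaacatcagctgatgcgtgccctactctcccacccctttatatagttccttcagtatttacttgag
IFI44, chr1:78649629-78649788, plus strand: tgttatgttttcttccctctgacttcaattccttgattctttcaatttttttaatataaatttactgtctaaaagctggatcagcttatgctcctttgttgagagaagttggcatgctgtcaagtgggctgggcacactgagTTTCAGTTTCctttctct
IFI6, chr1:27672193-27672352, minus strand: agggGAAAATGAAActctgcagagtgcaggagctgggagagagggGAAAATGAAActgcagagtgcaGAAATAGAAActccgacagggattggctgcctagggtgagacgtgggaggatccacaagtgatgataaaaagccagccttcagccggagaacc
IFIT1, chr10:89392463-89392622, plus strand: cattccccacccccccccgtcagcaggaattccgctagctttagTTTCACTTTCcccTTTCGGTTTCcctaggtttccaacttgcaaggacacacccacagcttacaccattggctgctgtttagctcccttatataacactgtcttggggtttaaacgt
ISG15, chr1:1013337-1013496, plus strand: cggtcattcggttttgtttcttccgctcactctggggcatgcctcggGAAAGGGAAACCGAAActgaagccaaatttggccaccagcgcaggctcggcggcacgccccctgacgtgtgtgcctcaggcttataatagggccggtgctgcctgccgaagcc
OAS1, chr12:112906802-112906961, plus strand: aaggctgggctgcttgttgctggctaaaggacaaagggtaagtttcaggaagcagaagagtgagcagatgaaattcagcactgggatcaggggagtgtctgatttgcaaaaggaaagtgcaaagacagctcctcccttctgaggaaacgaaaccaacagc

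The IFI6 stretch held 3 cores, the stretches of IFIT3, IFIT1 and ISG15 held 2 each (overlapping in ISG15), and that of IFI44 held 1 close to the start. No match to these letters lay in the OAS1 stretch, which held gaaacgaaa, with a shorter gap that the search could not match. A match describes the letters of the window and is no measurement of binding.

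In the Scramble control the pathway was not silent. With Scramble, 21 members averaged over 10 FPKM (5 of them over 100 FPKM), 15 between 1 and 10 FPKM, and 8 under 1 FPKM. ISG15, the ubiquitin-like modifier that many interferon-induced enzymes attach to proteins, was the highest, with 313, 287 and 295 FPKM. CMPK2, a mitochondrial nucleotide kinase beside RSAD2, was the lowest, listed at 0 in 8 of the 9 libraries and with 3 fragments in the remaining Scramble library. A count of 0 allows up to 3 fragments in a library. For the test a gene had to average 1 FPKM or more in any group, which 14363 genes and 39 members did. TLR3, IFNB1, MX1, CMPK2 and XAF1 fell below it.

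**Figure D1:**
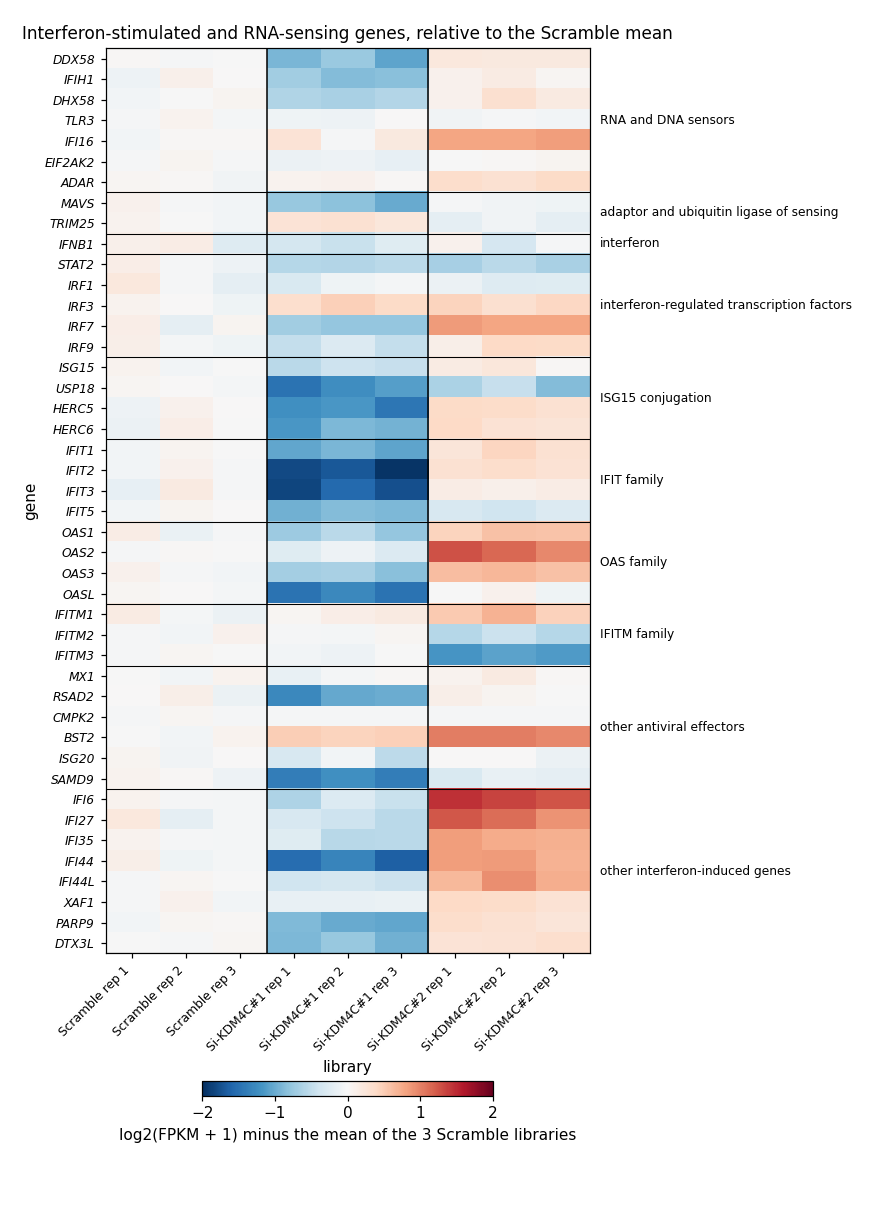
Level of each of the 44 genes (rows, by role) in each of the 9 libraries (columns) as log2(FPKM + 1) minus the mean of the 3 Scramble libraries, red higher and blue lower. Most rows are blue in the Si-KDM4C#1 columns (IFIT2 1.82 lower on average), while in the Si-KDM4C#2 columns IFI6 (1.36 higher) and OAS2 (1.13 higher) are the reddest and IFITM3 (1.13 lower) the bluest.

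With Si-KDM4C#1 the interferon-stimulated genes fell. None of the 39 tested members was called higher in limma-trend and 9 were called lower at FDR under 0.05 and a fold change over 2 on the log2(FPKM + 1) scale (USP18, HERC5, HERC6, IFIT2, IFIT3, OASL, RSAD2, SAMD9 and IFI44). Over all tested genes, 4.04% were called higher and 4.83% lower in this comparison. At an FDR under 0.05 alone, 28 members fell and 3 rose (BST2, IRF3 and TRIM25), against 33.9% and 31.7% of all tested genes. At an unadjusted p under 0.05 the higher members again numbered 3. Limma voom on the recovered fragments tested 37 members and called 0 higher and 17 lower past both limits. With a pseudocount of 0.1 the lower members also numbered 17. The 3 Si-KDM4C#1 libraries lay below all Scramble libraries for 29 members and above them for 3, where 36.0% and 33.5% of all tested genes did so. The median log2 difference of the tested members was -0.61, against -0.03 for all tested genes.

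With Si-KDM4C#2 most members rose by small amounts. Past both limits 4 members were higher (OAS2, BST2, IFI6 and IFI27) and 1 was lower (IFITM3), against 2.6% higher and 2.3% lower of all tested genes. At an FDR under 0.05 alone 21 members rose and 7 fell, with 34.4% and 25.0% of all tested genes as the background. All Si-KDM4C#2 libraries lay above all Scramble libraries for 22 members and below them for 7, against 37.3% and 27.9% of all tested genes. The median log2 difference of the members was 0.30, and that of all tested genes 0.06.

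Because both comparisons share the Scramble libraries, the siRNAs were also compared with each other. Against Si-KDM4C#1, 20 members were higher under Si-KDM4C#2 and 1 (IFITM3) was lower past both limits, where 4.41% and 2.49% of all tested genes were. At an FDR under 0.05 alone the counts were 32 higher and 3 lower (IFITM2, IFITM3 and TRIM25), against 35.9% and 26.5%. For 32 members every Si-KDM4C#2 library exceeded every Si-KDM4C#1 library and for 3 the reverse held, against 40.0% and 29.3% of all tested genes. The median log2 difference between the siRNAs was 1.11 for the members and 0.08 for all tested genes. KDM4C itself was lower under Si-KDM4C#2 than under Si-KDM4C#1 (log2 difference -0.73 ± 0.08 (SE), adjusted p = 2.4e-05), and the part of the depth of knockdown in the members' difference was not tested.

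**Figure D2:**
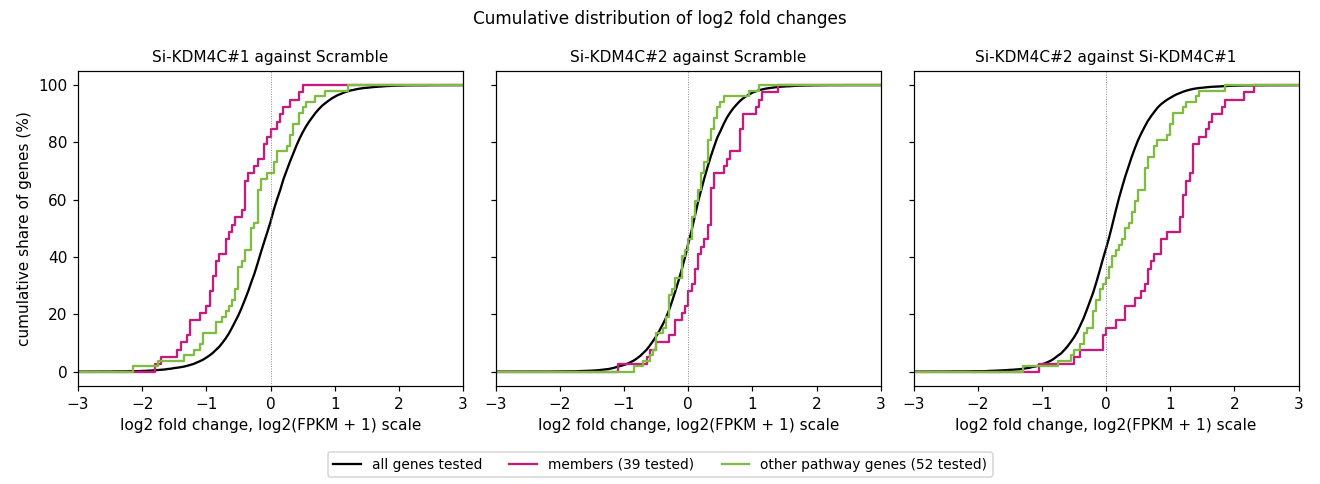
Cumulative share of genes (y axis, %) at or below each log2 fold change (x axis, log2(FPKM + 1) scale) in the 3 comparisons, for all 14363 genes tested (black), 39 members (magenta) and 52 other pathway genes (green). The members' curve lies to the left of the black curve under Si-KDM4C#1 (median -0.61 against -0.03), slightly to its right under Si-KDM4C#2 (0.30 against 0.06) and far to its right between the siRNAs (1.11 against 0.08).

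Among the sensors, the cytosolic RNA helicases fell under Si-KDM4C#1. DDX58, which encodes RIG-I, the sensor of 5′-triphosphate RNA, measured 7.30, 7.05 and 7.15 FPKM in Scramble, 3.33, 3.89 and 2.92 FPKM under Si-KDM4C#1 and 8.48, 8.34 and 8.38 FPKM under Si-KDM4C#2. No 2 groups overlapped, with a log2 difference of -0.90 ± 0.07 (SE, adjusted p = 3.37e-06) for Si-KDM4C#1 and 0.20 ± 0.07 (adjusted p = 0.0366) for Si-KDM4C#2. The small rise under Si-KDM4C#2 was lost without any 1 of the 6 libraries compared (log2 difference 0.19 to 0.21, adjusted p from 0.0598 to 0.0919). IFIH1, encoding MDA5, the sensor of long double-stranded RNA, was at 4.45, 5.28 and 4.87 FPKM in Scramble, 2.60, 2.21 and 2.27 FPKM under Si-KDM4C#1 and 5.23, 5.56 and 5.02 FPKM under Si-KDM4C#2. The Si-KDM4C#1 libraries were lowest without overlap (log2 difference -0.80 ± 0.07, adjusted p = 7.42e-06), and Si-KDM4C#2 overlapped Scramble (adjusted p = 0.27). The Si-KDM4C#2 difference passed after adjustment for GC content (0.21, adjusted p = 0.0241). DHX58, encoding LGP2, a helicase that modulates the other two, fell from a mean of 1.66 FPKM to 0.741 FPKM under Si-KDM4C#1 (log2 difference -0.61 ± 0.09, adjusted p = 0.000204) and averaged 2.05 FPKM under Si-KDM4C#2 (adjusted p = 0.0833).

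IFI16, a sensor of DNA in the nucleus and cytosol, differed from the helicases. It was at 2.61, 2.82 and 2.83 FPKM in Scramble, 3.55, 2.69 and 3.30 FPKM under Si-KDM4C#1 and 5.46, 5.51 and 5.72 FPKM under Si-KDM4C#2. It rose under Si-KDM4C#2 without overlap (log2 difference 0.81 ± 0.08, adjusted p = 1.79e-05), and its Si-KDM4C#1 libraries overlapped Scramble (0.15 ± 0.08, adjusted p = 0.118). The Si-KDM4C#1 difference passed without Si-KDM4C#1 replicate 2 (0.24, adjusted p = 0.0102) and after GC adjustment (0.39, adjusted p = 0.00151). It also passed after quantile normalization (0.26, adjusted p = 0.0208) and under voom (0.27, adjusted p = 0.0305). ADAR, which edits adenosine to inosine in double-stranded RNA, rose under Si-KDM4C#2 from 56.5 ± 2.15 to 72.2 ± 2.23 FPKM (mean ± SD, n = 3, log2 difference 0.35, adjusted p = 5.49e-05). With Si-KDM4C#1 its log2 difference was 0.06 (adjusted p = 0.201), and -0.14 (adjusted p = 0.0211) after quantile normalization. EIF2AK2, the kinase PKR that stops translation on binding double-stranded RNA, stayed between 11.6 and 13.6 FPKM in all 9 libraries. Its log2 difference of -0.12 under Si-KDM4C#1 (adjusted p = 0.0233) turned to 0.12 (adjusted p = 0.0149) after adjustment for GC content, and was -0.10 without Scramble replicate 2 or Si-KDM4C#1 replicate 3 (adjusted p = 0.0857 and 0.0732). TLR3, the endosomal receptor for double-stranded RNA, had between 1 and 15 fragments per library, at most 0.14 FPKM.

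The adaptor MAVS, on which RIG-I and MDA5 signal at mitochondria, was at 16.1, 15.0 and 14.5 FPKM in Scramble, 8.55, 8.22 and 7.07 FPKM under Si-KDM4C#1 and 15.0, 14.4 and 14.3 FPKM under Si-KDM4C#2. Only its Si-KDM4C#1 libraries stood apart, below the others (log2 difference from Scramble -0.86 ± 0.07, adjusted p = 2.48e-06). The Si-KDM4C#2 difference was -0.06 ± 0.07 (adjusted p = 0.488). It passed under voom (-0.12, adjusted p = 0.0487) and after quantile normalization (-0.16, adjusted p = 0.0354). TRIM25, the ubiquitin ligase of RIG-I, was highest under Si-KDM4C#1, with means of 25.7, 31.1 and 23.2 FPKM in Scramble, Si-KDM4C#1 and Si-KDM4C#2. Its rise under Si-KDM4C#1 (log2 difference 0.27 ± 0.05, adjusted p = 0.000815) was 0.10 (adjusted p = 0.0928) after quantile normalization. Its fall under Si-KDM4C#2 (-0.14 ± 0.05, adjusted p = 0.0304) did not pass without Scramble replicate 1 or 2 or Si-KDM4C#2 replicate 1 or 3 (log2 difference -0.15 to -0.11, adjusted p from 0.0559 to 0.0998).

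Transcripts of interferon beta were barely seen. IFNB1 had 6, 7 and 2 fragments with Scramble, 1, 0 and 2 under Si-KDM4C#1 and 6, 1 and 5 under Si-KDM4C#2 (at most 0.512 FPKM in any library). The groups overlapped, and in a fit without the filter on low genes the log2 difference was -0.35 (95% interval -0.68 to -0.02, adjusted p = 0.114) under Si-KDM4C#1 and -0.09 (-0.42 to 0.24, adjusted p = 0.722) under Si-KDM4C#2. A change of IFNB1 was not detectable at this depth.

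Of the interferon-regulated transcription factors, IRF7 carried the clearest difference. IRF7, the inducible factor for interferon genes, was at 8.14, 6.37 and 7.70 FPKM in Scramble, 4.15, 3.91 and 3.88 FPKM under Si-KDM4C#1 and 14.2, 13.4 and 13.4 FPKM under Si-KDM4C#2. The 3 groups did not overlap, and the log2 difference from Scramble was -0.75 ± 0.08 (adjusted p = 1.62e-05) under Si-KDM4C#1 and 0.81 ± 0.08 (adjusted p = 1.47e-05) under Si-KDM4C#2. STAT2, a subunit of the complex that binds the ISRE, fell with both siRNAs, from 12.5, 11.2 and 10.5 FPKM to 7.37, 7.29 and 7.52 FPKM under Si-KDM4C#1 and to 6.79, 7.54 and 6.87 FPKM under Si-KDM4C#2. The siRNA groups overlapped each other, with a log2 difference between them of -0.06 (95% interval -0.20 to 0.09). IRF9, the DNA-binding subunit, was low, at 0.744 ± 0.129 FPKM in Scramble, 0.309 ± 0.108 FPKM under Si-KDM4C#1 and 1.15 ± 0.227 FPKM under Si-KDM4C#2 (mean ± SD, n = 3). Its fall under Si-KDM4C#1 (log2 difference -0.41, adjusted p = 0.0188) did not pass without Scramble replicate 1 or Si-KDM4C#1 replicate 1 or 3 (-0.38 to -0.36, adjusted p from 0.0544 to 0.0579). Annotated exons of AL136295.5 cover 48.4% of the exon bases of IRF9, so part of these fragments could be shared.

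IRF3, the constitutive factor downstream of MAVS, rose with both siRNAs, from 12.9, 12.4 and 11.6 FPKM to 15.8, 17.5 and 16.4 FPKM under Si-KDM4C#1 and 17.1, 15.5 and 16.7 FPKM under Si-KDM4C#2. Both groups lay above Scramble (log2 differences 0.40 and 0.39, adjusted p = 0.000169 and 0.000252), and the difference between them was -0.01 (95% interval -0.14 to 0.12). BCL2L12, at 25.4 FPKM on average, overlaps 19.3% of the exon bases of IRF3, and the counting was not stated to use strand. IRF1, an early interferon-induced factor, was between 1.23 and 2.19 FPKM in all libraries and did not pass the test with either siRNA (adjusted p = 0.315 and 0.163). Under voom its fall with Si-KDM4C#2 passed (-0.39, adjusted p = 0.0168).

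The genes of ISG15 conjugation all fell under Si-KDM4C#1 at an FDR under 0.05, as 33.9% of all tested genes did. ISG15 itself went from 313, 287 and 295 FPKM to 205, 222 and 215 FPKM under Si-KDM4C#1 and was at 332, 348 and 303 FPKM under Si-KDM4C#2. The Si-KDM4C#1 libraries were lowest without overlap (log2 difference -0.48 ± 0.06, adjusted p = 5.08e-05). Si-KDM4C#2 overlapped Scramble (0.13 ± 0.06, adjusted p = 0.0671), a difference that passed without Scramble replicate 1 (0.17, adjusted p = 0.0387) or Si-KDM4C#2 replicate 3 (0.19, adjusted p = 0.0148) and was -0.15 (adjusted p = 0.0313) after adjustment for GC content. HERC5, the main ligase that joins ISG15 to new proteins, was at 17.4, 19.8 and 18.8 FPKM in Scramble, 7.34, 7.73 and 6.20 FPKM under Si-KDM4C#1 and 24.5, 24.4 and 23.2 FPKM under Si-KDM4C#2. None of its groups overlapped (log2 differences -1.28 ± 0.07, adjusted p = 3.89e-07, and 0.35 ± 0.07, adjusted p = 0.00264). HERC6, a relative of HERC5, fell under Si-KDM4C#1 from 3.59 ± 0.404 to 1.29 ± 0.223 FPKM (log2 difference -1.0, adjusted p = 8.98e-06). This fall sat at the fold change limit, and was short of it without Scramble replicate 2 (-0.94) or Si-KDM4C#1 replicate 1 (-0.92), after GC adjustment (-0.95) and after quantile normalization (-0.88). Its rise to 4.69 ± 0.290 FPKM under Si-KDM4C#2 (0.31, adjusted p = 0.0162) did not pass without Scramble replicate 1 (0.25, adjusted p = 0.0576) or Si-KDM4C#2 replicate 1 (0.27, adjusted p = 0.0613).

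USP18, which removes ISG15 and restrains the type I interferon receptor, fell with both siRNAs. It was at 8.74, 8.51 and 8.20 FPKM in Scramble, 2.42, 2.99 and 3.42 FPKM under Si-KDM4C#1 and 5.09, 5.92 and 4.18 FPKM under Si-KDM4C#2. All 6 knockdown libraries lay below the Scramble libraries, and the log2 difference was -1.27 ± 0.11 (adjusted p = 7.4e-06) under Si-KDM4C#1 and -0.65 ± 0.11 (adjusted p = 0.000875) under Si-KDM4C#2.

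The IFIT genes, whose proteins bind viral RNA, lie in a cluster on the plus strand of chromosome 10, from 89283694 (the start of IFIT2) to 89421001 (the end of IFIT5) in GRCh38 and GENCODE release 29. IFIT2 and IFIT3 had the 2 largest log2 falls among the tested members under Si-KDM4C#1. IFIT2 was at 24.2, 26.8 and 24.6 FPKM in Scramble, 6.49, 7.08 and 5.72 FPKM under Si-KDM4C#1 and 31.2, 32.2 and 31.1 FPKM under Si-KDM4C#2. Its mean FPKM was 3.91-fold lower under Si-KDM4C#1 than with Scramble (log2 difference -1.82 ± 0.07, adjusted p = 2.87e-08), and all Si-KDM4C#2 libraries lay above Scramble (0.31 ± 0.07, adjusted p = 0.00282). IFIT3, which stabilises IFIT1, measured 32.6, 42.0 and 36.3 FPKM, then 9.54, 11.9 and 10.2 FPKM, and 41, 39.4 and 40.7 FPKM in the same order. It fell under Si-KDM4C#1 (-1.72 ± 0.09, adjusted p = 2.86e-07) and overlapped Scramble under Si-KDM4C#2 (0.13 ± 0.09, adjusted p = 0.26). The promoter stretches of both IFIT3 and IFIT1 above carry 2 ISRE cores each. IFIT1, which binds RNA caps that lack methylation, was at 21.0, 22.8 and 21.7 FPKM in Scramble, 10.1, 11.1 and 10.0 FPKM under Si-KDM4C#1 and 25.8, 29.8 and 27.2 FPKM under Si-KDM4C#2. None of its groups overlapped, and its log2 difference of -1.0 ± 0.06 under Si-KDM4C#1 (adjusted p = 5.51e-07) fell just short of the fold change limit. It passed that limit without Scramble replicate 1 (-1.03) or 3 (-1.0, just past it) or Si-KDM4C#1 replicate 2 (-1.04), under voom (-1.01), with a pseudocount of 0.1 (-1.06) and after quantile normalization (-1.09). IFIT5 fell with both siRNAs (log2 difference -0.91 and -0.33, adjusted p = 3.84e-07 and 0.000453), from 10.0 to 4.88 and 7.78 FPKM on average.

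The OAS genes encode synthases of 2-5A, the messenger that activates RNase L, and OASL is a related protein without that activity. OAS1, OAS3 and OAS2 lie side by side on chromosome 12, from 112906777 to 113011723, and OASL lies apart from them, from 121019111 to 121039242. OASL was at 58.4, 56.8 and 54.9 FPKM in Scramble, 19.6, 22.5 and 19.7 FPKM under Si-KDM4C#1 and 56.3, 60.2 and 53.1 FPKM under Si-KDM4C#2. It fell under Si-KDM4C#1 (log2 difference -1.42 ± 0.06, adjusted p = 7.42e-08) and overlapped Scramble under Si-KDM4C#2 (-0.01, 95% interval -0.15 to 0.13). OAS1, without a match to the searched letters in the stretch above, was at 5.65, 4.50 and 4.91 FPKM in Scramble, 2.61, 3.14 and 2.5 FPKM under Si-KDM4C#1 and 7.13, 8.03 and 7.87 FPKM under Si-KDM4C#2. OAS3 followed the same order with means of 10.8, 6.16 and 17.1 FPKM. For both genes the 3 groups did not overlap, with log2 differences of -0.68 and -0.72 under Si-KDM4C#1 and of 0.53 and 0.62 under Si-KDM4C#2 (adjusted p at most 0.000638).

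OAS2 rose most of this family under Si-KDM4C#2. It measured 0.909, 0.964 and 0.922 FPKM in Scramble, 0.628, 0.809 and 0.606 FPKM under Si-KDM4C#1 and 3.67, 3.29 and 2.74 FPKM under Si-KDM4C#2. Its mean FPKM was 3.47-fold higher under Si-KDM4C#2 than with Scramble (log2 difference 1.13 ± 0.10, adjusted p = 1.19e-05). With Si-KDM4C#1 it lay below Scramble in all libraries but did not pass the test (-0.20 ± 0.10, adjusted p = 0.108). Between the siRNAs all 4 genes of the family were called higher under Si-KDM4C#2, as were 4.41% of all tested genes. Their log2 differences were 1.21 (OAS1), 1.33 (OAS2), 1.34 (OAS3) and 1.41 (OASL).

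**Figure D3:**
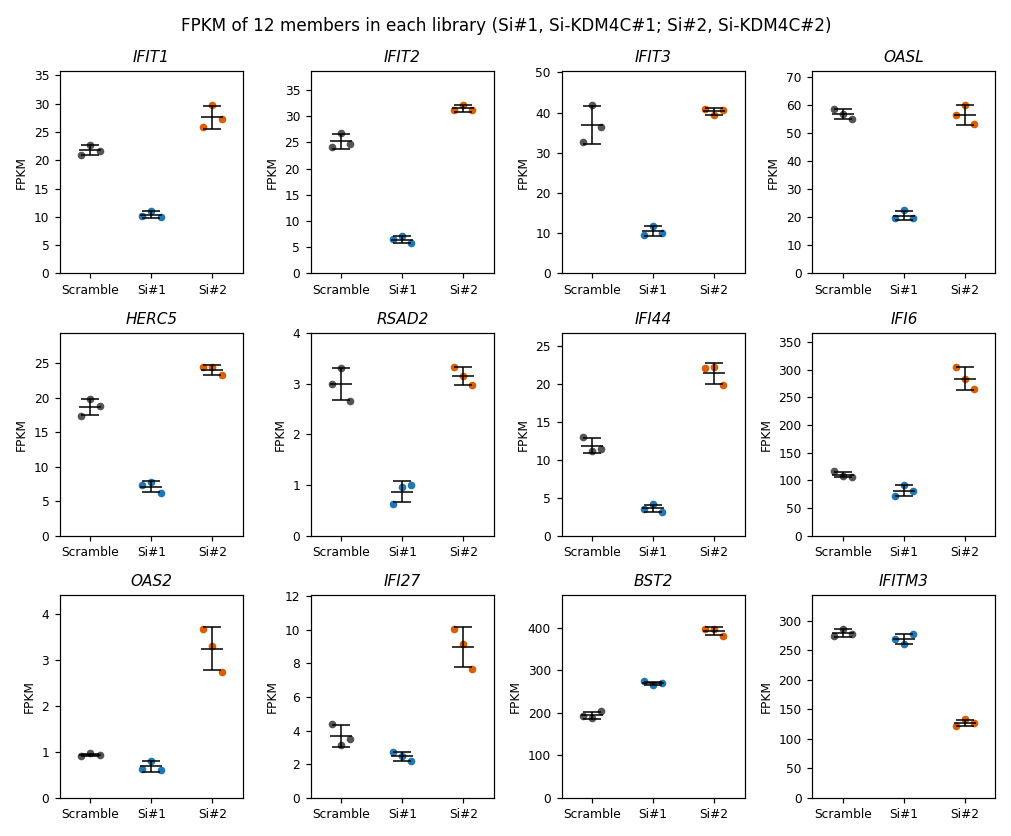
FPKM (y axis, linear from 0) of 12 members in each library, with points for libraries, a horizontal mark for the mean and bars for 1 SD (n = 3). IFIT1, IFIT2, IFIT3, OASL, HERC5 and RSAD2 are low in the Si-KDM4C#1 libraries alone (IFIT2 at 5.72 to 7.08 FPKM), IFI6, OAS2 and IFI27 are high under Si-KDM4C#2, BST2 is higher in both knockdowns, and IFITM3 is low under Si-KDM4C#2 alone (122 to 133 FPKM).

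The IFITM proteins, which block the fusion of viruses with cell membranes, did not follow the other families. Their genes lie together on chromosome 11, from 307631 (the start of IFITM2) to 327537 (the end of IFITM3). IFITM3 was at 274, 286 and 277 FPKM in Scramble, 269, 260 and 277 FPKM under Si-KDM4C#1 and 122, 133 and 127 FPKM under Si-KDM4C#2. The Si-KDM4C#2 libraries lay far below all others (log2 difference from Scramble -1.13 ± 0.04, adjusted p = 5.45e-08). Si-KDM4C#1 overlapped Scramble (-0.05 ± 0.04, adjusted p = 0.262), with -0.23 (adjusted p = 0.00162) after adjustment for GC content and -0.19 (adjusted p = 0.0014) after quantile normalization. IFITM2 was at 99.6, 97.1 and 108 FPKM in Scramble, 100, 99.0 and 104 FPKM under Si-KDM4C#1 and 67.9, 74.9 and 68.1 FPKM under Si-KDM4C#2. It fell under Si-KDM4C#2 alone (-0.52 ± 0.05, adjusted p = 2.02e-05), but under Si-KDM4C#1 too after GC adjustment (-0.16, adjusted p = 0.026) or quantile normalization (-0.19, adjusted p = 0.0117). IFITM1 rose under Si-KDM4C#2, from 86.6, 75.6 and 71.2 FPKM to 112, 127 and 107 FPKM (0.56 ± 0.08, adjusted p = 0.000272), and was at 79.5, 85.3 and 88.2 FPKM under Si-KDM4C#1 (0.12 ± 0.08, adjusted p = 0.233; 0.20, adjusted p = 0.0468, without Scramble replicate 1).

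The IFITM values are less certain than the others because these genes are close copies. Over the aligned bases of their coding sequences, IFITM2 and IFITM3 were 94.0% identical, IFITM1 and IFITM3 87.6%, and IFITM1 and IFITM2 85.0%. In addition, 32.5% of the exon bases of IFITM1 lie in annotated exons of IFITM2, so the split of fragments among the 3 genes depends on the counting.

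Of the 4 tested other antiviral effectors, RSAD2 and SAMD9 fell under Si-KDM4C#1, BST2 rose and ISG20 did not pass at an FDR under 0.05. BST2, or tetherin, which holds budding virions at the cell surface, was at 193, 187 and 203 FPKM in Scramble, 273, 266 and 269 FPKM under Si-KDM4C#1 and 396, 397 and 381 FPKM under Si-KDM4C#2. It rose with both siRNAs and no groups overlapped (log2 differences 0.47 ± 0.04, adjusted p = 3.01e-06, and 1.01 ± 0.04, adjusted p = 6.45e-08). The second value sat at the fold change limit, and was 0.98 without Scramble replicate 2, 1.0, just under the limit, without Si-KDM4C#2 replicate 1 or 2 and 0.86 after GC adjustment. RSAD2, encoding viperin, which makes a chain-terminating nucleotide, was at 3.00, 3.32 and 2.67 FPKM in Scramble, 0.630, 0.964 and 1.00 FPKM under Si-KDM4C#1 and 3.34, 3.15 and 2.97 FPKM under Si-KDM4C#2. It fell 3.46-fold in mean FPKM under Si-KDM4C#1 (log2 difference -1.10 ± 0.10, adjusted p = 7.6e-06; -0.93 after GC adjustment and -0.97 after quantile normalization, short of the fold change limit) and overlapped Scramble under Si-KDM4C#2 (adjusted p = 0.638).

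SAMD9, an antiviral and growth-restricting protein, fell under Si-KDM4C#1 from 7.81, 7.51 and 6.78 FPKM to 2.21, 2.56 and 2.20 FPKM (log2 difference -1.33 ± 0.07, adjusted p = 2.26e-07). With Si-KDM4C#2 it was at 5.79, 6.51 and 6.35 FPKM, below every Scramble library (-0.21 ± 0.07, adjusted p = 0.0259). That smaller fall did not pass without Scramble replicate 1 or 2 or Si-KDM4C#2 replicate 1 (-0.20 to -0.17, adjusted p from 0.0747 to 0.0956) and was -0.01 (adjusted p = 0.868) after GC adjustment. ISG20, an RNA exonuclease, ranged from 0.735 to 1.60 FPKM and did not pass under Si-KDM4C#1 (-0.30 ± 0.12, adjusted p = 0.0541). Its fall did pass without Si-KDM4C#1 replicate 2 (-0.42, adjusted p = 0.01), after GC adjustment (-0.41, adjusted p = 0.0136) and under voom (-0.51, adjusted p = 0.00455). MX1, a dynamin-like GTPase that is often among the most inducible genes of this response, stayed at 0.103 to 0.395 FPKM with 16 to 53 fragments per library.

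The other interferon-induced genes separated the siRNAs throughout. All 7 tested genes of this group fell under Si-KDM4C#1 and rose under Si-KDM4C#2 at an FDR under 0.05, as 33.9% and 34.4% of all tested genes did in the respective comparison. IFI44, a cytoplasmic protein of little known function, measured 13.0, 11.1 and 11.5 FPKM in Scramble, 3.48, 4.13 and 3.15 FPKM under Si-KDM4C#1 and 22.0, 22.2 and 19.8 FPKM under Si-KDM4C#2. Its log2 difference between the siRNAs, 2.29 ± 0.09 (adjusted p = 4.5e-08), was the largest among the tested members, a 5.95-fold difference in mean FPKM. From Scramble it differed by -1.49 ± 0.09 and 0.80 ± 0.09 (adjusted p = 4.15e-07 and 3.84e-05). IFI6, a small membrane protein with 3 ISRE cores in the stretch above, was at 116, 108 and 107 FPKM in Scramble, 71.3, 91.3 and 81.0 FPKM under Si-KDM4C#1 and 305, 282 and 264 FPKM under Si-KDM4C#2. None of its groups overlapped (-0.44 ± 0.09, adjusted p = 0.00126, and 1.36 ± 0.09, adjusted p = 1.2e-06), and its rise under Si-KDM4C#2 was the largest of the tested members on the log2(FPKM + 1) scale. In mean FPKM it rose 2.58-fold, less than OAS2 (3.47-fold) and IFI44L (2.63-fold).

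IFI27, a mitochondrial relative of IFI6, was at 4.39, 3.12 and 3.52 FPKM in Scramble, 2.71, 2.49 and 2.21 FPKM under Si-KDM4C#1 and 10.1, 9.13 and 7.69 FPKM under Si-KDM4C#2. It was thus higher in each Si-KDM4C#2 library than in any other (log2 difference from Scramble 1.09 ± 0.12, adjusted p = 3.3e-05; under Si-KDM4C#1, -0.42 ± 0.12, adjusted p = 0.00933). IFI35 averaged 12.7, 9.09 and 22.2 FPKM in the 3 groups, and its libraries did not overlap between groups. IFI44L, a neighbour of IFI44 on chromosome 1, averaged 0.769, 0.348 and 2.02 FPKM, and its fall under Si-KDM4C#1 (-0.39, adjusted p = 0.00917) did not pass after GC adjustment (-0.14, adjusted p = 0.219) or quantile normalization (-0.25, adjusted p = 0.0688). PARP9 and DTX3L, partners in 1 ubiquitin ligase complex that share a promoter region, moved alike, PARP9 at 3.06, 1.06 and 4.0 FPKM and DTX3L at 5.90, 2.79 and 7.49 FPKM on average. PARP9 fell by 0.98 under Si-KDM4C#1 on the log2 scale, just short of the limit (-1.03 without Si-KDM4C#1 replicate 1). XAF1, a pro-apoptotic protein, had 11, 21 and 10 fragments with Scramble, 2, 2 and 4 under Si-KDM4C#1 and 50, 47 and 44 under Si-KDM4C#2. In the fit without the filter it rose under Si-KDM4C#2 (0.35, adjusted p = 0.00112), and under Si-KDM4C#1 it did not pass (-0.14, adjusted p = 0.0705) although voom on the fragments gave -2.13 (adjusted p = 0.00179).

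Members whose promoter held a match to the spelled ISRE core were compared by description with those without a match. Of the 22 with a core 20 were tested, and their median log2 difference was -0.76 under Si-KDM4C#1 and 0.30 under Si-KDM4C#2. Of the 14 without one 11 were tested, with medians of -0.44 and 0.30. Past both limits 5 of the 20 and 1 of the 11 fell under Si-KDM4C#1, where 4.83% of all tested genes did. Members without a matched promoter entry were in neither group, among them USP18, IFIT2 and OASL, which were called lower under Si-KDM4C#1. OAS1, with gaaacgaaa in its stretch, was counted among those without a core.

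A wider list of 81 other genes of the pathway, of which 78 were listed and 52 tested, gave the surrounding picture. With Si-KDM4C#1, 7 were called lower and 1 higher past both limits, and 34 fell and 12 rose at an FDR under 0.05 alone, against 33.9% lower and 31.7% higher of all tested genes. The 7 became 3 after GC adjustment and 4 after quantile normalization, over the same 52 genes. Over other sets of genes, 4 of 43 were lower with 1 FPKM required in every library and 18 of 67 under voom. With Si-KDM4C#2, limma-trend called 0 lower and 1 higher (limma voom called 3 lower), and 16 fell and 17 rose at an FDR under 0.05 alone, with the same counts at an unadjusted p under 0.05. As shares these were 30.8% lower and 32.7% higher, near the 25.0% and 34.4% of all tested genes. The median log2 difference of these genes was -0.30 under Si-KDM4C#1 and 0.04 under Si-KDM4C#2. Of the 28 tested interferon-stimulated genes in that list, 21 fell and 5 rose under Si-KDM4C#1, and 5 fell and 9 rose under Si-KDM4C#2, at an FDR under 0.05. The Si-KDM4C#2 shares, 17.9% lower and 32.1% higher, were both below those of all tested genes.

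IFNAR1, a chain of the type I interferon receptor, had the largest fall of the list on the log2(FPKM + 1) scale. It was at 16.7, 16.7 and 17.1 FPKM in Scramble, 3.45, 2.70 and 2.73 FPKM under Si-KDM4C#1 and 12.8, 13.5 and 12.3 FPKM under Si-KDM4C#2. Its mean FPKM was 5.68-fold lower under Si-KDM4C#1 (log2 difference -2.17 ± 0.07, adjusted p = 1.76e-08) and 1.3-fold lower under Si-KDM4C#2 (-0.36 ± 0.07, adjusted p = 0.00189), without overlap between groups. IFNAR1, MAVS, DDX58 and IFIH1 thus fell in the same Si-KDM4C#1 libraries as the interferon-stimulated genes, and their part in that fall was not tested.

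The other pathway genes called lower under Si-KDM4C#1 were mostly interferon-stimulated themselves. DDX60, a helicase that supports RIG-I, went from 12.5 ± 0.308 to 2.92 ± 0.486 FPKM (log2 difference -1.79), and was at 8.13 ± 0.486 FPKM under Si-KDM4C#2 (-0.56, adjusted p = 0.00028). RNF213, a large ubiquitin ligase, went from 18.1 ± 0.257 to 6.39 ± 1.31 FPKM (-1.38) and was at 17.8 ± 0.704 FPKM under Si-KDM4C#2 (adjusted p = 0.852). SAMD9L, the paralog of SAMD9, went from 1.71 ± 0.0389 to 0.158 ± 0.0310 FPKM, a 10.8-fold difference that the log2(FPKM + 1) scale gives as -1.23. The chemokine CXCL10 (-1.10), the GTPase GBP2 (-1.08) and the ADP-ribosyltransferase PARP14 (-1.05) completed the list, with adjusted p of at most 2.1e-05 for all 6 genes. After GC adjustment CXCL10 (-0.84), GBP2 (-0.98), PARP14 (-0.90) and SAMD9L (-0.98) were short of the fold change limit, as were CXCL10 (-0.98), GBP2 (-0.96) and PARP14 (-0.95) after quantile normalization. CXCL10 and GBP2 were lower under Si-KDM4C#2 too (-0.34, adjusted p = 0.0304, and -0.75, adjusted p = 0.000246), although for CXCL10 this did not pass without Scramble replicate 1 or 2 or Si-KDM4C#2 replicate 2 or 3 (-0.34 to -0.29, adjusted p from 0.067 to 0.099).

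TRAF3, an adaptor between MAVS and TBK1, was the gene called higher with both siRNAs. It was at 3.45, 2.88 and 3.18 FPKM in Scramble, 8.42, 8.90 and 7.91 FPKM under Si-KDM4C#1 and 7.98, 7.07 and 8.06 FPKM under Si-KDM4C#2. All knockdown libraries lay above Scramble (log2 differences 1.18 ± 0.07 and 1.06 ± 0.07, adjusted p = 4.9e-07 and 1.71e-06), and the siRNAs differed by -0.11 (95% interval -0.28 to 0.05). After GC adjustment the Si-KDM4C#2 difference was 0.95, short of the fold change limit.

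**Figure D4:**
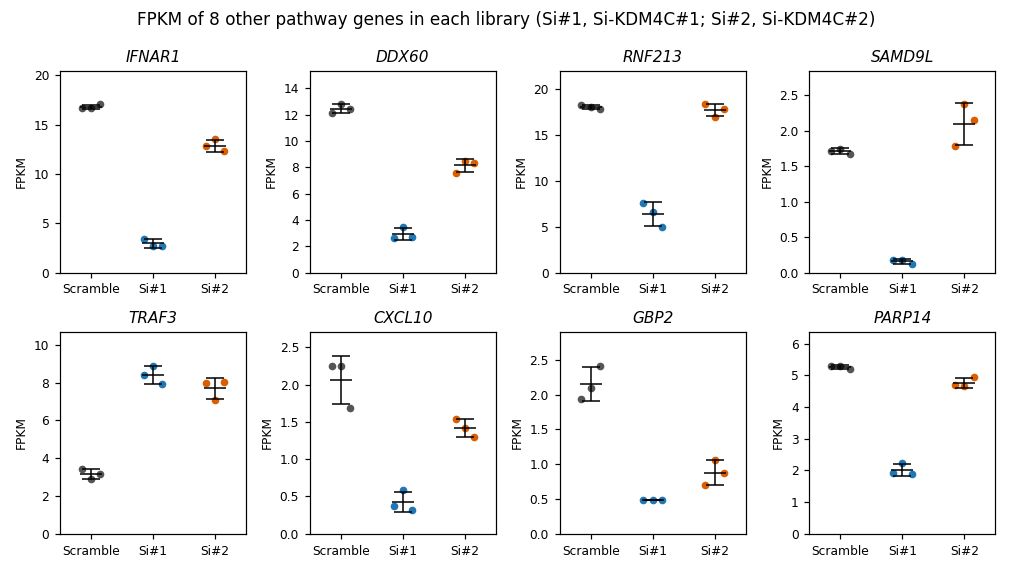
FPKM (y axis, linear from 0) of the 8 other pathway genes past both limits with either siRNA, with points for libraries, a horizontal mark for the mean and bars for 1 SD (n = 3). IFNAR1, DDX60, RNF213, SAMD9L, CXCL10, GBP2 and PARP14 are lowest under Si-KDM4C#1 (IFNAR1 at 2.70 to 3.45 FPKM), and TRAF3 is higher in all knockdown libraries (7.07 to 8.90 FPKM) than with Scramble.

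The labels do not say whether the 3 libraries of a group came from separate cultures, so the p-values measure the spread between these libraries, which may be technical. In bulk RNA, fewer cells that express a gene and less RNA per cell cannot be told apart.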

How the data were processed

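The 3 groups of Huh7 libraries (Scramble, Si-KDM4C#1 and Si-KDM4C#2, 3 each) were compared. The values deposited by the authors are FPKM, in a separate list for each library. The submitters' processing notes name FastQC 0.11.5, HISAT2 2.1.0, StringTie 1.3.3b, featureCounts, DESeq 1.28.0 and GRCh38; the annotation is not given in the sources used here. With exon lengths of GENCODE release 29, values were turned into fragments, whole within 0.05 in all libraries for 32077 genes (97.5%) and 40 members. IFIH1, ADAR, TRIM25 and ISG15 did not come out whole, and no fragments are given for them.

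FPKM values were compared as log2(FPKM + 1) with limma 3.58.1 (limma-trend, R 4.3.3), all 9 libraries in 1 fit, over the 14363 genes that averaged 1 FPKM or more in any group. Benjamini-Hochberg adjustment ran over all genes tested, with calls at FDR under 0.05 and a fold change over 2. Members below the filter were taken from a fit over all 32906 genes. Log2 differences on this scale understate changes of low genes. On simulated data of this design, with 200 genes changed 4-fold, limma-trend called 189 under Si-KDM4C#1 and 190 under Si-KDM4C#2 among 13877 genes. It also made 7 and 4 false calls. Limma voom called 200 in each comparison among 16053 genes, with 6 and 4 false calls. The changed genes were drawn only from genes past the filter with a minimum of Scramble fragments. All genes had the same simulated spread, so recovery of genes with few fragments was not measured. Smaller changes were not simulated, so the power near the fold change limit was not measured.

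Alternatives were a pseudocount of 0.1, no filter, 1 FPKM in every library, quantile normalization, a lowess adjustment for GC content (span 0.3), limma voom on the fragments (at least 10 in at least 3 libraries), a fit of only the 6 libraries compared, a block for the replicate number, calls without the fold change limit, and fits without each library. Named were all listed members, KDM4C, other pathway genes past both limits with either siRNA, and the promoters of the 3 most changed members with an entry and of IFIT1, ISG15 and OAS1. The members and lists were chosen with earlier results of these data known. Promoters are from RefSeq, on GRCh38.p14. Python 3.11.15 with pandas 2.3.3, scipy 1.17.1, Biopython 1.88 and matplotlib 3.10.9 served for sequences and plots.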

Additional observations from a re-analysis of the deposited data

Results flagged for a closer look

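The direct test between the siRNAs passed both limits for 21 members, where 4.41% of all tested genes were called higher and 2.49% lower. These members were marked because the effect of one siRNA differed from that of the other. The Si-KDM4C#2 minus Si-KDM4C#1 log2 differences were 2.29 for IFI44, 2.13 for IFIT2, 1.85 for IFIT3 and 1.80 for IFI6. HERC5 followed with 1.63, IRF7 with 1.56, IFI27 with 1.52 and OASL with 1.41. Next came OAS3 (1.34), OAS2 (1.33), IFIT1 (1.33), HERC6 (1.31), PARP9 (1.28), OAS1 (1.21) and IFI35 (1.21). The remaining genes higher under Si-KDM4C#2 were DTX3L (1.17), IFI44L (1.16), RSAD2 (1.16), SAMD9 (1.12) and DDX58 (1.11). IFITM3 was the member lower under Si-KDM4C#2, by -1.07. For all 21 genes every library of one siRNA lay on one side of every library of the other. Genes picked by this test would mostly do so, and the separation adds no support. Over all tested genes 40.0% were separated as higher and 29.3% as lower.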

How the results depend on the processing

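The counts of members between the siRNAs were 16 to 23 higher and 1 lower past both limits under every alternative that kept the fold change limit. With no fold change limit the members higher and lower became 3 and 28 (Si-KDM4C#1), 21 and 7 (Si-KDM4C#2) and 32 and 3 (between the siRNAs), and the other pathway genes 12 and 34, 17 and 16, and 29 and 13. Members lower under Si-KDM4C#1 rose from 9 to 17 under limma voom on the fragments and under a pseudocount of 0.1. Members higher at FDR alone rose from 3 to 5 after GC adjustment, with or without the replicate block. Other pathway genes lower under Si-KDM4C#1 numbered 7, but 18 under voom, 4 with 1 FPKM in every library or after quantile normalization, and 3 after GC adjustment with or without the block; those higher numbered 2 under voom or a pseudocount of 0.1. With Si-KDM4C#2 they numbered 0 higher after GC adjustment (with or without the block) and 2 higher with a pseudocount of 0.1, and 3 lower under voom and 2 with that pseudocount. Between the siRNAs 7 were higher and 1 lower, against 4 higher with 1 FPKM in every library, 19 and 2 under voom and 12 and 2 with a pseudocount of 0.1. Voom tested 37 members and 67 other pathway genes, and the fit with 1 FPKM in every library 32 and 43. The main fit tested 39 and 52, so those counts are over different genes. The causes of these changes in the counts were not tested.

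Over 2528 alternative values of single named genes, 52 no longer passed and 40 newly passed FDR 0.05. A further 5 changed sign where the main or the alternative value passed FDR 0.05. Sign changes where neither value passed were not counted. The 5 were EIF2AK2 under Si-KDM4C#1 (0.12 after GC adjustment and with the block added), ADAR under Si-KDM4C#1 (-0.14 after quantile normalization) and ISG15 under Si-KDM4C#2 (-0.15 after GC adjustment and with the block added). Leaving out 1 library gave 8 to 11 members lower under Si-KDM4C#1, 3 to 4 higher under Si-KDM4C#2, and 20 higher between the siRNAs. Libraries with the same replicate number did not deviate together (mean correlation 0.016 over 9 pairs, from -0.046 to 0.055), so the numbers were not used for pairing. A fit with the replicate block gave the same counts of members past both limits, namely 9 lower for Si-KDM4C#1, 4 higher and 1 lower for Si-KDM4C#2 and 20 and 1 between the siRNAs. Depth limits the members below 1 FPKM, where a library held as few as 0 to 53 fragments for TLR3, IFNB1, MX1, CMPK2 and XAF1.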

Other observations

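Some genes of the pathway did not pass both limits with either siRNA and are given here as values, chosen after their values were seen. TBK1, the kinase downstream of MAVS, fell from 12.4 FPKM in Scramble to 6.27 FPKM under Si-KDM4C#1 and 9.69 FPKM under Si-KDM4C#2 (log2 differences -0.89 and -0.33, adjusted p = 7.12e-07 and 0.000722). CGAS, the cytosolic DNA sensor, rose from 6.02 FPKM to 9.28 and 7.99 FPKM (0.55 and 0.36, adjusted p = 5.38e-06 and 0.000151), while TMEM173, which encodes its adaptor STING, fell from 7.54 FPKM to 5.40 and 4.88 FPKM (-0.41 and -0.54, adjusted p = 0.000477 and 0.000112). The libraries of either siRNA did not overlap with Scramble for these 3 genes. Over all tested genes, 33.5% lay above and 36.0% below Scramble without overlap under Si-KDM4C#1, and 37.3% and 27.9% under Si-KDM4C#2.

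None of the 6 listed interferon genes outside the members reached the filter, and they held at most 21 fragments in any library (IFNE). IFNL1 had 2, 8 and 4 fragments with Scramble, 0, 5 and 1 under Si-KDM4C#1 and 16, 3 and 6 under Si-KDM4C#2. IFNL2 had 1, 0 and 4 fragments with Scramble, 0 in every Si-KDM4C#1 library and 3, 3 and 5 under Si-KDM4C#2. Most of these counts are close to the 3 fragments that a count of 0 allows.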
